A study of Homo sapiens with 12 samples.

Results

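The 10 genes described here mark intestinal epithelial cells, or, in the case of SNAI1, encode a repressor of such genes. They are ELF3, LGALS4, CLDN4, CDX1, CDX2, VIL1, EPCAM, CDH1, KRT20 and SNAI1. They were taken by gene symbol from the deposited count table by a rule that uses no measured value, though earlier results of these data were known when the set was chosen, and are 10 of its 60666 human gene rows. Of the 10, 8 had enough reads to be tested among 20791 human genes, while CDX1 and VIL1 did not. Polyadenylated RNA came from DLD-1, a human colorectal adenocarcinoma cell line whose cells all express OsTIR1 constitutively, a plant receptor that directs proteins with an auxin-inducible degron (AID) tag to destruction once auxin is present. One line carried the tag on SPT6, which reassembles histones behind elongating RNA polymerase II, and the other on PAF1, the name-giving subunit of an elongation complex. The groups were SPT6-AID OsTIR1 cells after 0, 2 and 6 h in 500 µM auxin and PAF1-AID OsTIR1 cells after 0, 2 and 6 h in 500 µM auxin, with 2 libraries in each of the 6 groups. The 0 h cells carried the same tag and receptor and had not yet received auxin.

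Replicates 1 and 2 are SPT6-AID libraries and replicates 3 and 4 are PAF1-AID libraries, by the numbers in the labels. Whether the libraries of a group came from separate cultures, or a line from 1 clone, is not stated, so the p-values reflect the spread between these libraries alone, which may be technical. Untagged cells given auxin are not among the samples analysed, and depletion and any effect of auxin itself cannot be told apart. The degron acts on protein, so the mRNA of the targeted genes does not check depletion.

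Intestinal epithelial identity rests on a small set of transcription factors and on the surface and cytoskeletal proteins they keep switched on. CDX1 and CDX2 are the caudal-type homeodomain factors of the intestine, and ELF3 is an epithelial ETS factor that acts in the differentiation of intestinal cells. E-cadherin (CDH1), the adhesion molecule EPCAM and the tight junction protein claudin-4 (CLDN4) hold epithelial cells together. Galectin-4 (LGALS4), keratin 20 (KRT20) and the microvillus actin-bundling protein villin (VIL1) mark differentiated intestinal cells. SNAI1, also called Snail, is a zinc finger repressor that binds E-box sequences, among them those of the CDH1 promoter, and is known for driving the epithelial-mesenchymal transition. Its protein is short-lived.

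The libraries held 31957953 to 115904780 counts, of which 1661945 to 5564723 were assigned to fly genes. Levels are given in CPM, each gene's read count relative to the human reads of its library, after trimmed mean of M-values (TMM) scaling, which sets the bulk of genes to no change. Scaling by the fly reads instead, whose manner of addition is not given in the sources used here, moved the median log2 fold change of all genes tested at 6 h against 0 h to -0.39 in SPT6-AID cells and -0.37 in PAF1-AID cells, against 0.04 and 0.02 under TMM. In SPT6-AID cells it left 958 of 6800 called genes higher, against 1821 of 5230 under TMM. In PAF1-AID cells it left 296 of 3161 called genes higher, against 873 of 2267 under TMM. Changes below are therefore relative to the bulk of genes, and calls on the named genes that depend on this choice are pointed out. The share of human counts from the mitochondrial genome was 3.85% and 3.92% in SPT6-AID cells at 6 h, against 2.39% and 2.45% at 0 h, and 3.16% and 2.22% in PAF1-AID cells at 6 h, against 1.63% and 2.16% at 0 h, and its part in the results was not tested.

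Before any comparison, the levels show which of these genes DLD-1 cells use. Per kilobase of the transcript length that the authors deposited, EPCAM was the most abundant, with a mean over the 12 libraries of 370.0 CPM per kb. KRT20 at 84.3, CDH1 at 72.3, CDX2 at 62.8 and CLDN4 at 44.7 CPM per kb formed a middle tier. ELF3 at 7.52 and SNAI1 at 6.24 CPM per kb were lower. LGALS4 at 0.147 CPM per kb rested on 4 to 35 counts a library, and VIL1 at 0.0109 CPM per kb on 0 to 11. CDX1 (chromosome 5, 150166795 to 150184558) had 0 counts in every one of the 12 libraries, which allows a level of up to 0.00476 CPM over all of them together and up to 0.105 CPM in the shallowest library, counting error only. The line thus expressed CDX2 but gave no CDX1 reads, and carried KRT20 at a level far above the other differentiation markers LGALS4 and VIL1.

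**Figure D1:**
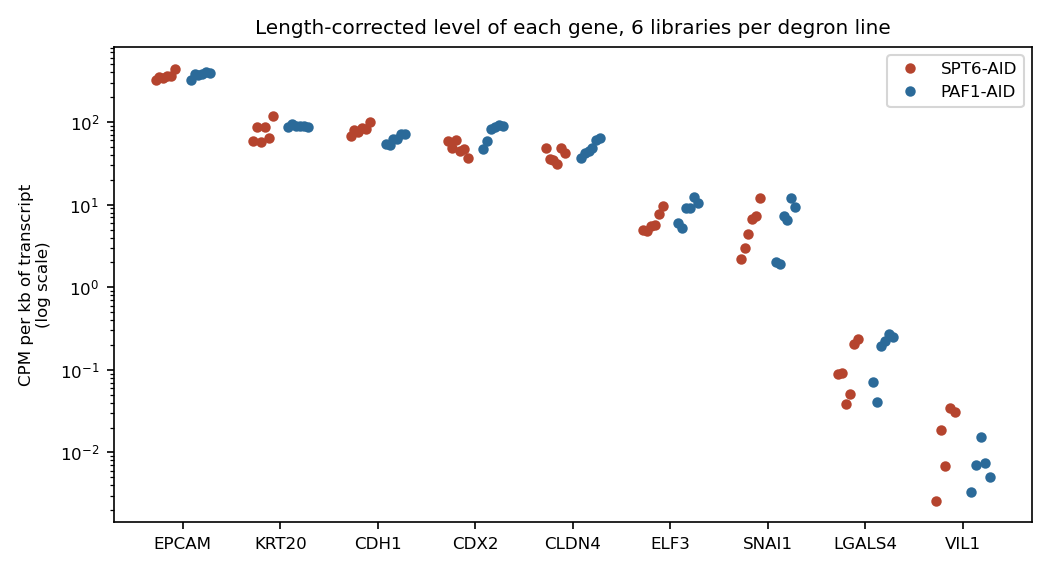
Level of 9 genes in CPM per kb of deposited transcript length on a log axis, 1 point per library, with SPT6-AID libraries in red and PAF1-AID libraries in blue, each in the order 0, 2 and 6 h. EPCAM lies highest and VIL1 lowest; CDX1, at 0 in all 12 libraries, and the 2 libraries in which VIL1 had 0 counts are not drawn.

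Markers of the labelled tissue were abundant: KRT8, KRT18, KRT19, CDH17, CEACAM5 and GPA33 summed to 2225 to 4582 CPM a library, although CEACAM5 and GPA33 gave only 125 and 127 counts in all. None of these 6 was called at 2 or 6 h against 0 h (edgeR); at an unadjusted p below 0.05 there were 1 at 6 h in SPT6-AID cells and 2 at 6 h in PAF1-AID cells, and DESeq2 called 1 in SPT6-AID cells at 6 h. Under fly scaling KRT19 was called lower there, at -0.66 (edgeR adjusted p = 0.0134). Fibroblast markers summed to at most 3.51 CPM, and COL1A2 and LUM were at 0 in every library. Endothelial markers summed to at most 3.11 CPM, and blood markers to 7.54 to 41.3 CPM, nearly all of it HBB at a mean of 21.6 CPM, with PTPRC at 28 counts in all. Of 3 endothelial and 3 blood markers tested, PECAM1 (75 counts in all), CD14 (299) and CD79A (185) were called higher at 6 h in SPT6-AID cells. Under fly scaling CD79A was not called. DESeq2 called 1 endothelial and 1 blood marker there. Of all genes tested, 8.76% rose there under TMM and 4.61% under fly scaling. Genes read so rarely may have passed the low-count filter only through the group in which they were high. These calls are therefore no support for a change.

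The first question is how many of the 8 tested genes moved after each protein was removed. At 2 h none was called in SPT6-AID cells, where 0.548% of all genes tested were called, and none in PAF1-AID cells, where 0.149% were (adjusted p below 0.05 in edgeR's quasi-likelihood test, with Benjamini-Hochberg adjustment over every gene in the fit). At an unadjusted p below 0.05 there were 2 in SPT6-AID cells and 4 in PAF1-AID cells, and DESeq2's Wald test called 1 (SNAI1) and 2 (ELF3 and SNAI1). At 6 h in SPT6-AID cells 3 of the 8 were higher (SNAI1, ELF3 and LGALS4) and none lower, against 8.76% of all genes higher and 16.4% lower. At 6 h in PAF1-AID cells 5 of the 8 were higher (SNAI1, LGALS4, ELF3, CDX2 and CLDN4) and none lower. Of all genes, 4.20% were higher there and 6.70% lower. LGALS4, with 4 to 11 counts a library at 0 h, passed the filter on low counts only through groups in which it was higher. Its calls in these counts are therefore no support for a rise of the set. EPCAM, CDH1 and KRT20 were called in none of the 9 comparisons made with the edgeR fit that has no replicate block. Calls in other settings are given at the end.

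**Figure D2:**
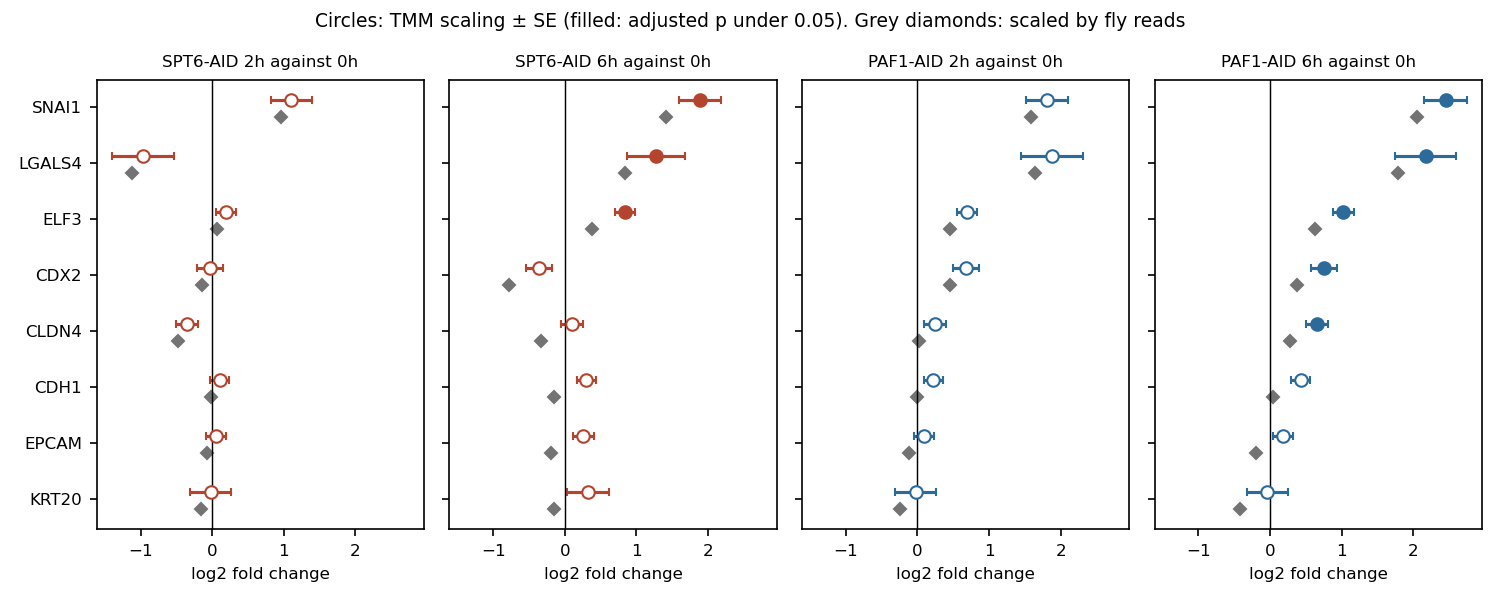
Log2 fold change of the 8 tested genes against 0 h of auxin in each line and time, TMM-scaled, with SE bars (filled: adjusted p below 0.05), and the same value scaled by fly reads as a grey diamond. SNAI1 lies farthest to the right at 6 h in both lines, and all fly-scaled values lie to the left of the TMM ones. Under TMM, CDX2 and KRT20 (0.32 and -0.04) lie on opposite sides of 0 in the 2 lines at 6 h. LGALS4 does so at 2 h (-0.97 and 1.88).

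SNAI1 (ENSG00000124216; GRCh38 chromosome 20, 49982999 to 49988886, plus strand, 3 exons) had the largest log2 fold change of the tested genes at 6 h in each line. In SPT6-AID cells its level was 3.77 and 5.14 CPM at 0 h, 7.58 and 11.5 CPM at 2 h, and 12.5 and 20.5 CPM at 6 h. In PAF1-AID cells it was 3.42 and 3.26 CPM at 0 h, 12.4 and 11.1 CPM at 2 h, and 20.6 and 16.0 CPM at 6 h. Both later times lay above 0 h in each line with no overlap, and within SPT6-AID cells replicate 2 was the higher of the pair at every time. At 6 h SNAI1 rose by a log2 fold change of 1.89 ± 0.29 (SE) in SPT6-AID cells and 2.45 ± 0.30 in PAF1-AID cells (edgeR adjusted p = 0.00124 and 0.00199). These 2 calls held with fly scaling (1.41 and 2.06) and without any 1 library.

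Much of the difference in SNAI1 was already present at 2 h, though not past the threshold in the fit of all libraries. Its log2 fold change at 2 h was 1.10 ± 0.29 in SPT6-AID cells (edgeR adjusted p = 0.156) and 1.81 ± 0.30 in PAF1-AID cells (edgeR adjusted p = 0.0542). DESeq2's Wald test, in contrast, gave an adjusted p of 0.0116 in SPT6-AID cells and 2.07e-06 in PAF1-AID cells. In PAF1-AID cells the edgeR call was made when either SPT6-AID 6h library was left out, and not when any other library was. Under fly scaling the 2 h values were 0.96 in SPT6-AID cells and 1.58 in PAF1-AID cells, neither past the threshold (edgeR adjusted p = 0.234 and 0.113). The step between 2 and 6 h was 0.78 in SPT6-AID cells and 0.64 in PAF1-AID cells (edgeR adjusted p = 0.0914 and 0.348). Neither the 2 h nor the 6 h response differed between the lines past the threshold: SPT6-AID minus PAF1-AID was -0.71 ± 0.41 at 2 h and -0.56 ± 0.40 at 6 h (edgeR adjusted p = 1.00 and 0.600).

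**Figure D3:**
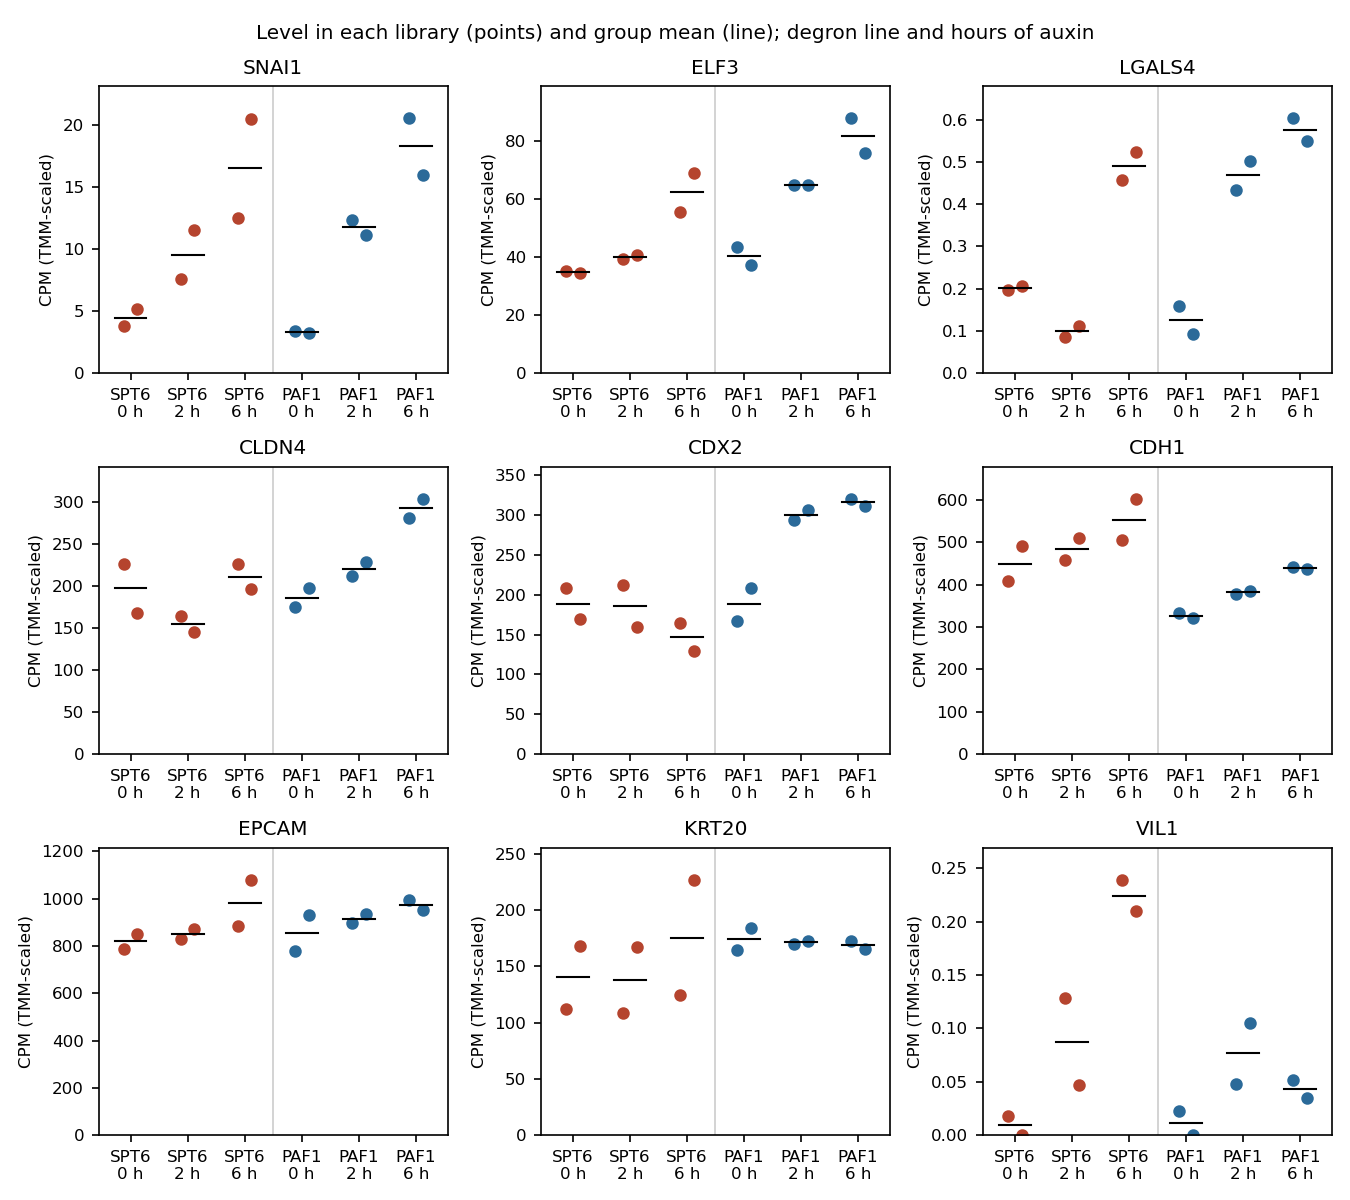
Level in CPM of 9 genes in each of the 12 libraries (points) with the group mean (line), for SPT6-AID cells in red and PAF1-AID cells in blue at 0, 2 and 6 h of auxin; each axis starts at 0. SNAI1 and ELF3 lie higher at 6 h than at 0 h in each line, CDX2 and CLDN4 do so without overlap in PAF1-AID cells, and EPCAM varies little beside its level.

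The 4 other genes called at 6 h in PAF1-AID cells are shown with the 250 bases upstream of their RefSeq transcription start (GRCh38.p14), because the E-box recognised by SNAI1 can be looked for there. The motif searched was CAGGTG or its reverse complement CACCTG on either strand, and matches are in capitals. RefSeq promoter entries were matched for 5 of the 10 genes, these 4 and KRT20. The sequences, 5′ to 3′ on the gene's strand, were as follows.
ELF3 (chr1:202010337-202010586, plus strand): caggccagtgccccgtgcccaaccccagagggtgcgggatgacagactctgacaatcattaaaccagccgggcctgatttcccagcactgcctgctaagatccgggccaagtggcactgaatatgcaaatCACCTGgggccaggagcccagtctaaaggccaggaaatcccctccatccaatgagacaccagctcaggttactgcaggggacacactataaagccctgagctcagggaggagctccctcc
LGALS4 (chr19:38812946-38813195, minus strand): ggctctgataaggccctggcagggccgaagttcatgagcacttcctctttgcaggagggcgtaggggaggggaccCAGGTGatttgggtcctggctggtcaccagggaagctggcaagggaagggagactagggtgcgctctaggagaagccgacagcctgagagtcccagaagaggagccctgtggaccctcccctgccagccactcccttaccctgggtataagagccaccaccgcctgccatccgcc
CLDN4 (chr7:73830746-73830995, plus strand): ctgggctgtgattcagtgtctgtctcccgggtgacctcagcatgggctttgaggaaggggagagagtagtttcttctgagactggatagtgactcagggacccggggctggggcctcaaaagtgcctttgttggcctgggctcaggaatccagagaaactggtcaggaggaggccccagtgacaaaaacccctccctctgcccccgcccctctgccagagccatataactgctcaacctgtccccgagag
CDX2 (chr13:27969316-27969565, minus strand): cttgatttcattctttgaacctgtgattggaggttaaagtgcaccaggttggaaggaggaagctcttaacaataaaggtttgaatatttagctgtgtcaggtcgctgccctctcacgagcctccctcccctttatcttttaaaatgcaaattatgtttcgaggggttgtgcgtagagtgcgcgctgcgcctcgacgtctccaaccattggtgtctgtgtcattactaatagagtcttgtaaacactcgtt

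ELF3 held 1 match, starting 120 bases before the start, and LGALS4 held 1, starting 175 bases before it. No match lay in the windows of CLDN4, CDX2 and KRT20. The same letters occurred in 17.5% of 35116 human promoters of this length, and 2 or more times in 2.53%. A match is a description of the letters only. The windows of ELF3, LGALS4, CLDN4 and CDX2 lie inside the longer GENCODE spans of those genes, so other starts of these genes were not searched. The ELF3 window also lies partly under the antisense RNA of that gene, ELF3-AS1.

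ELF3 (ENSG00000163435; chromosome 1, 202007945 to 202017188, plus strand) rose in both lines. SPT6-AID cells had it at 35.1 and 34.6 CPM at 0 h, 39.4 and 40.6 CPM at 2 h, and 55.7 and 69.1 CPM at 6 h. PAF1-AID cells had it at 43.4 and 37.1 CPM at 0 h, 64.8 and 65.0 CPM at 2 h, and 88.1 and 75.8 CPM at 6 h. The 3 times did not overlap within either line, and PAF1-AID cells at 2 h lay inside the range of SPT6-AID cells at 6 h. At 6 h the log2 fold change was 0.84 ± 0.14 in SPT6-AID cells and 1.02 ± 0.14 in PAF1-AID cells (edgeR adjusted p = 0.00193 and 0.00279), and neither call was lost without any 1 library. Under fly scaling the value was 0.39 in SPT6-AID cells, no longer past the threshold (edgeR adjusted p = 0.118), and 0.62 in PAF1-AID cells (adjusted p = 0.0382).

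From 2 to 6 h in SPT6-AID cells 2 of the 8 genes, ELF3 and LGALS4, were called higher and none lower. Of all genes, 5.32% were higher there and 10.4% lower. LGALS4 entered the tested set only through groups in which it was high. The ELF3 step there was 0.64 ± 0.14 (edgeR adjusted p = 0.0129). That call was lost without SPT6-AID 2h replicate 1 or 2 or SPT6-AID 6h replicate 2, with values of 0.62, 0.69 and 0.48, and under fly scaling at 0.32. At 2 h the log2 fold changes were 0.20 ± 0.14 in SPT6-AID cells and 0.69 ± 0.14 in PAF1-AID cells (edgeR adjusted p = 1 and 0.115), and their difference was -0.49 ± 0.20 (edgeR adjusted p = 1.00). ELF3-AS1, the antisense RNA that overlaps 2519 bases of ELF3, held 1591 counts in all against 33361 for ELF3. It fell at 6 h in PAF1-AID cells, to 1.21 ± 0.055 CPM, against 3.35 ± 0.17 CPM at 0 h (SD, n = 2 each; log2 fold change -1.46 ± 0.30 SE, edgeR adjusted p = 0.0133). The strand setting of the authors' counting is not given in the sources used here, so reads of the overlap may be split between both genes.

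CDX2 (ENSG00000165556; chromosome 13, 27962137 to 27971139, minus strand) was the 1 tested gene whose 6 h response was called different between the lines in the fit without a replicate block. Its level in SPT6-AID cells was 208 and 169 CPM at 0 h, 212 and 159 CPM at 2 h, and 165 and 129 CPM at 6 h. Its level in PAF1-AID cells was 168 and 208 CPM at 0 h, 294 and 306 CPM at 2 h, and 321 and 312 CPM at 6 h. All 4 auxin-treated PAF1-AID libraries lay above every other library, while both SPT6-AID libraries at 6 h lay below the 2 at 0 h. At 6 h its log2 fold change was -0.36 ± 0.18 in SPT6-AID cells, not past the threshold (edgeR adjusted p = 0.181), while it rose by 0.75 ± 0.18 in PAF1-AID cells (edgeR adjusted p = 0.0270). The 6 h response in SPT6-AID cells minus that in PAF1-AID cells was -1.11 ± 0.26 (edgeR adjusted p = 0.0437), the 1 such difference called among the 8 genes, where 3.12% of all genes tested were called lower and 0.620% higher.

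These CDX2 calls lay close to the threshold in the fit without a replicate block. The CDX2 calls with the replicate number as a block are given at the end. The PAF1-AID 6 h value was 0.60 without PAF1-AID 0h replicate 3, 0.92 without PAF1-AID 0h replicate 4, 0.75 without PAF1-AID 6h replicate 3 and 0.76 without PAF1-AID 6h replicate 4, none of them called (edgeR adjusted p = 0.161, 0.0502, 0.130 and 0.0830). Under fly scaling that value was 0.38 (edgeR adjusted p = 0.312), and the SPT6-AID 6 h value was -0.78 and passed the threshold as lower (edgeR adjusted p = 0.0299). The difference between the lines ranged over -1.28 to -0.94 when 1 library was left out and stayed past the threshold in 3 of 12 cases, those without SPT6-AID 2h replicate 1, SPT6-AID 2h replicate 2 or SPT6-AID 6h replicate 1. It was -1.08 with DESeq2's size factors and -1.15 with fly scaling (edgeR adjusted p = 0.189), neither past the threshold, while DESeq2's Wald test gave an adjusted p of 0.00505. At 2 h the CDX2 response was -0.02 ± 0.18 in SPT6-AID cells and 0.68 ± 0.18 in PAF1-AID cells (edgeR adjusted p = 1 and 0.270).

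Claudin-4 (CLDN4, ENSG00000189143; chromosome 7, 73799542 to 73832693, plus strand), which seals tight junctions, rose at 6 h in PAF1-AID cells. In SPT6-AID cells it stood at 227 and 168 CPM at 0 h, 164 and 145 CPM at 2 h, and 226 and 196 CPM at 6 h. In PAF1-AID cells it stood at 175 and 197 CPM at 0 h, 212 and 228 CPM at 2 h, and 281 and 304 CPM at 6 h. The PAF1-AID times did not overlap, whereas the SPT6-AID libraries at 6 h lay within the range of those at 0 h and those at 2 h lay below both. The log2 fold change at 6 h was 0.10 ± 0.16 in SPT6-AID cells and 0.65 ± 0.16 in PAF1-AID cells (edgeR adjusted p = 0.695 and 0.0266), and their difference, -0.56 ± 0.22 for SPT6-AID minus PAF1-AID, did not pass (edgeR adjusted p = 0.237). Without PAF1-AID 0h replicate 3 or 4 or PAF1-AID 6h replicate 3 or 4 the PAF1-AID value was 0.57, 0.74, 0.72 and 0.59 and was not called, and with fly scaling it was 0.27 (edgeR adjusted p = 0.415).

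E-cadherin (CDH1, ENSG00000039068; chromosome 16, 68737225 to 68835548, plus strand), the adhesion molecule whose gene SNAI1 is best known to repress, was not called lower in either line at the times when SNAI1 was called higher. The SPT6-AID libraries had 409 and 490 CPM at 0 h, 458 and 511 CPM at 2 h, and 505 and 602 CPM at 6 h. The PAF1-AID libraries had 332 and 322 CPM at 0 h, 379 and 384 CPM at 2 h, and 441 and 437 CPM at 6 h. At 6 h both libraries lay above both at 0 h in each line, and the PAF1-AID times did not overlap. The log2 fold change at 6 h was 0.30 ± 0.13 in SPT6-AID cells and 0.42 ± 0.13 in PAF1-AID cells, neither past the threshold (edgeR adjusted p = 0.135 and 0.0712), and with fly scaling it was -0.15 and 0.03 (edgeR adjusted p = 0.441 and 0.885). DESeq2's Wald test gave an adjusted p of 0.0310 for the PAF1-AID value.

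EPCAM (ENSG00000119888; chromosome 2, 47345158 to 47387601, plus strand) was the steadiest of the tested genes, its highest library 1.39 times its lowest. It averaged 982 ± 139 CPM at 6 h against 820 ± 46.5 CPM at 0 h in SPT6-AID cells, and 973 ± 28.6 CPM at 6 h against 856 ± 109 CPM at 0 h in PAF1-AID cells (SD, n = 2 each). Its log2 fold changes, 0.26 ± 0.14 in SPT6-AID cells and 0.19 ± 0.14 in PAF1-AID cells, were not called (edgeR adjusted p = 0.217 and 0.463), and both were -0.19 under fly scaling.

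Galectin-4 (LGALS4, ENSG00000171747; chromosome 19, 38801671 to 38813364, minus strand), a lectin of intestinal cells that binds sugars on the cell surface, was read so rarely that its changes rest on a handful of counts. In SPT6-AID cells it had 11 and 11 counts at 0 h, 4 and 12 at 2 h, and 21 and 15 at 6 h, or 0.196 and 0.206 CPM, 0.0857 and 0.112 CPM, and 0.456 and 0.524 CPM. In PAF1-AID cells it had 7 and 4 counts at 0 h, 18 and 24 at 2 h, and 35 and 32 at 6 h, or 0.160 and 0.0917 CPM, 0.433 and 0.503 CPM, and 0.605 and 0.549 CPM. Both lines were highest at 6 h, but in CPM the SPT6-AID libraries at 2 h lay below those at 0 h while the PAF1-AID libraries at 2 h lay above theirs. The log2 fold change at 6 h was 1.27 ± 0.41 in SPT6-AID cells and 2.18 ± 0.43 in PAF1-AID cells (edgeR adjusted p = 0.0431 and 0.0110). LGALS4 passed the low-count filter only through SPT6-AID 6h, PAF1-AID 2h and PAF1-AID 6h, the groups in which it was high. These calls are therefore no independent support for a rise. Fitted with no filter, the SPT6-AID value was not called and the PAF1-AID value was (edgeR adjusted p = 0.161 and 0.00897).

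The SPT6-AID call on LGALS4 at 6 h held in 2 of 12 cases with 1 library left out, those without PAF1-AID 0h replicate 3 or 4, and the value ranged over 1.19 to 1.42. With fly scaling that value was 0.84 (edgeR adjusted p = 0.179). The PAF1-AID call was lost without PAF1-AID 0h replicate 4 or PAF1-AID 6h replicate 3, at 1.84 and 2.12, and held with fly scaling at 1.78. The step from 2 to 6 h was called in SPT6-AID cells at 2.24 ± 0.43 (edgeR adjusted p = 0.00691) and lost without SPT6-AID 2h replicate 2, at 2.50. At 2 h the responses stood at -0.97 ± 0.44 in SPT6-AID cells and 1.88 ± 0.44 in PAF1-AID cells, and their difference of -2.84 ± 0.62 did not pass the threshold (edgeR adjusted p = 0.435).

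Keratin 20 (KRT20, ENSG00000171431; chromosome 17, 40875941 to 40885227, minus strand) is an intermediate filament protein of differentiated intestinal cells. The level of KRT20 in SPT6-AID cells was 112 and 168 CPM at 0 h, 108 and 168 CPM at 2 h, and 124 and 227 CPM at 6 h. The level of KRT20 in PAF1-AID cells was 165 and 184 CPM at 0 h, 170 and 173 CPM at 2 h, and 173 and 165 CPM at 6 h. Every SPT6-AID group spanned more than any PAF1-AID group, with replicate 2 the higher at each time, and the times overlapped in both lines. Its log2 fold change at 6 h was 0.32 ± 0.29 in SPT6-AID cells and -0.04 ± 0.29 in PAF1-AID cells (edgeR adjusted p = 0.455 and 0.951), and with fly scaling it was -0.16 and -0.43.

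Villin (VIL1, ENSG00000127831; chromosome 2, 218419092 to 218453295, plus strand) gave 42 counts over the 12 libraries and did not pass the filter on low counts. In SPT6-AID cells it had 1 and 0 counts at 0 h, 6 and 5 at 2 h, and 11 and 6 at 6 h. In PAF1-AID cells it had 1 and 0 counts at 0 h, 2 and 5 at 2 h, and 3 and 2 at 6 h. The libraries at 0 h were the lowest in each line. Relative to the TMM-scaled human reads, the 17 counts at 6 h in SPT6-AID cells were 24.9 times the 1 count at 0 h. The 95% interval was 3.91 to 1042 (exact, conditional on the summed count, counting error only). On the same basis the 5 counts at 6 h in PAF1-AID cells were 3.76 times the 1 count at 0 h (95% interval 0.421 to 178). Fitted with no filter, VIL1 was called at 6 h in SPT6-AID cells (edgeR adjusted p = 0.0190) and not in PAF1-AID cells (edgeR adjusted p = 0.785). The end of VIL1 overlaps 3045 bases of USP37, a gene on the other strand with 23208 counts, which fell at 6 h by 1.08 on the log2 scale in SPT6-AID cells and by 0.69 in PAF1-AID cells (edgeR adjusted p = 0.00223 and 0.0409). Without the strand setting, reads of that overlap cannot be told apart.

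Before auxin, none of the 8 genes was called between PAF1-AID and SPT6-AID cells, where 0.0337% of all genes were (edgeR). At an unadjusted p below 0.05 there was 1, CDH1, and DESeq2 called 0. CDH1 averaged 327 ± 7.59 CPM in PAF1-AID cells and 450 ± 57.2 CPM in SPT6-AID cells at 0 h (SD, n = 2 each), a log2 difference of -0.46 ± 0.13 SE (edgeR adjusted p = 0.515). All 6 group means of CDH1 ordered the SPT6-AID groups above the PAF1-AID ones, although the SPT6-AID libraries at 0 h overlapped the PAF1-AID libraries at 6 h. Between 2 and 6 h in PAF1-AID cells none of the 8 was called, where 0.875% of all genes were (edgeR; 3 at an unadjusted p below 0.05, 0 by DESeq2). For the difference between the 2 h responses none was called, where 0.0337% of all genes were (edgeR; 4 at an unadjusted p below 0.05, 0 by DESeq2).

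The wider programme was read from lists of related genes. Among 21 other intestinal transcription factors, 19 were tested, and at 6 h in SPT6-AID cells 8 fell and 1 rose under TMM, against 10 and 0 under fly scaling. Of all genes tested there, 16.4% fell and 8.76% rose under TMM, and 28.1% fell and 4.61% rose under fly scaling. At 6 h in PAF1-AID cells 4 fell and 1 rose under TMM, against 5 and 0 under fly scaling, beside 6.70% of all genes lower and 4.20% higher under TMM and 13.8% and 1.42% under fly scaling. Their median log2 fold change was -0.70 in SPT6-AID cells and -0.42 in PAF1-AID cells, beside 0.04 and 0.02 for all genes tested. MYB, a factor of crypt progenitor cells, fell by 1.72 ± 0.16 (SE) on the log2 scale in SPT6-AID cells and by 1.15 ± 0.15 in PAF1-AID cells (edgeR adjusted p = 0.000127 and 0.00248).

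FOXA1, a pioneer factor of endoderm, was the 1 gene of the list called by edgeR at 2 h. It stood at -1.09 ± 0.18 in SPT6-AID cells (edgeR adjusted p = 0.0350, and 0.146 with fly scaling), and at -0.72 ± 0.18 there at 6 h (edgeR adjusted p = 0.0141). Of all genes tested, 0.548% were called at 2 h in SPT6-AID cells and 0.149% in PAF1-AID cells. At an unadjusted p below 0.05 (edgeR), 8 list genes were lower at 2 h in SPT6-AID cells and 5 in PAF1-AID cells. None was higher, and DESeq2 called 6 and 1. The list medians at 2 h were -0.62 and -0.37. KLF4, a factor of differentiated surface cells, was the 1 that rose at 6 h. Its rise was 0.83 ± 0.13 in SPT6-AID cells and 0.48 ± 0.13 in PAF1-AID cells (edgeR adjusted p = 0.00126 and 0.0407), with 0.40 and 0.08 and no call under fly scaling. ELF3 and KLF4 thus moved the other way from most called factors of the list in both lines under TMM.

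Among 32 other genes of epithelial junctions and the epithelial programme, all tested, 3 rose and 4 fell at 6 h in SPT6-AID cells, and 1 rose and 2 fell in PAF1-AID cells, with medians of 0.01 and 0.04. These shares lay near those of all genes tested, 8.76% higher and 16.4% lower in SPT6-AID cells and 4.20% higher and 6.70% lower in PAF1-AID cells. Under fly scaling none rose, and 10 fell in SPT6-AID cells and 6 in PAF1-AID cells, where 28.1% and 13.8% of all genes fell. GRHL2, an epithelial transcription factor, had the largest fall of the genes named, with -2.14 ± 0.22 in SPT6-AID cells and -1.94 ± 0.22 in PAF1-AID cells (edgeR adjusted p = 0.000202 and 0.00176), and -2.55 and -2.31 with fly scaling. The tight junction genes OCLN, at -0.86 ± 0.21, and TJP1, at -0.74 ± 0.17, fell in SPT6-AID cells (edgeR adjusted p = 0.0121 and 0.00881) and stood at 0.03 and 0.18 in PAF1-AID cells. CLDN1 fell in PAF1-AID cells by 0.75 ± 0.17 (edgeR adjusted p = 0.0185), in the group in which CLDN4 rose under TMM. In SPT6-AID cells CLDN1 stood at -0.38 under TMM and was called lower under fly scaling alone, at -0.81 (edgeR adjusted p = 0.0224). ST14, a membrane protease of epithelia, rose by 0.38 ± 0.12 and 0.52 ± 0.12 in SPT6-AID and PAF1-AID cells (edgeR adjusted p = 0.0379 and 0.0204), but stood at -0.06 and 0.13 with fly scaling.

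Brush border and other differentiation genes were largely unread: 17 of 32 were tested, and CEACAM7 and PHGR1 had 0 counts in all 12 libraries. None was called at 6 h in either line (edgeR). Of all genes tested, 8.76% rose and 16.4% fell in SPT6-AID cells, and 4.20% rose and 6.70% fell in PAF1-AID cells. The list medians were 0.32 in SPT6-AID cells and 0.18 in PAF1-AID cells, and -0.12 and -0.19 under fly scaling. At an unadjusted p below 0.05 there were 5 list genes in SPT6-AID cells and 1 in PAF1-AID cells, and DESeq2 called 1 and 0. Fly scaling called 2 as lower in SPT6-AID cells, where 28.1% of all genes tested fell.

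**Figure D4:**
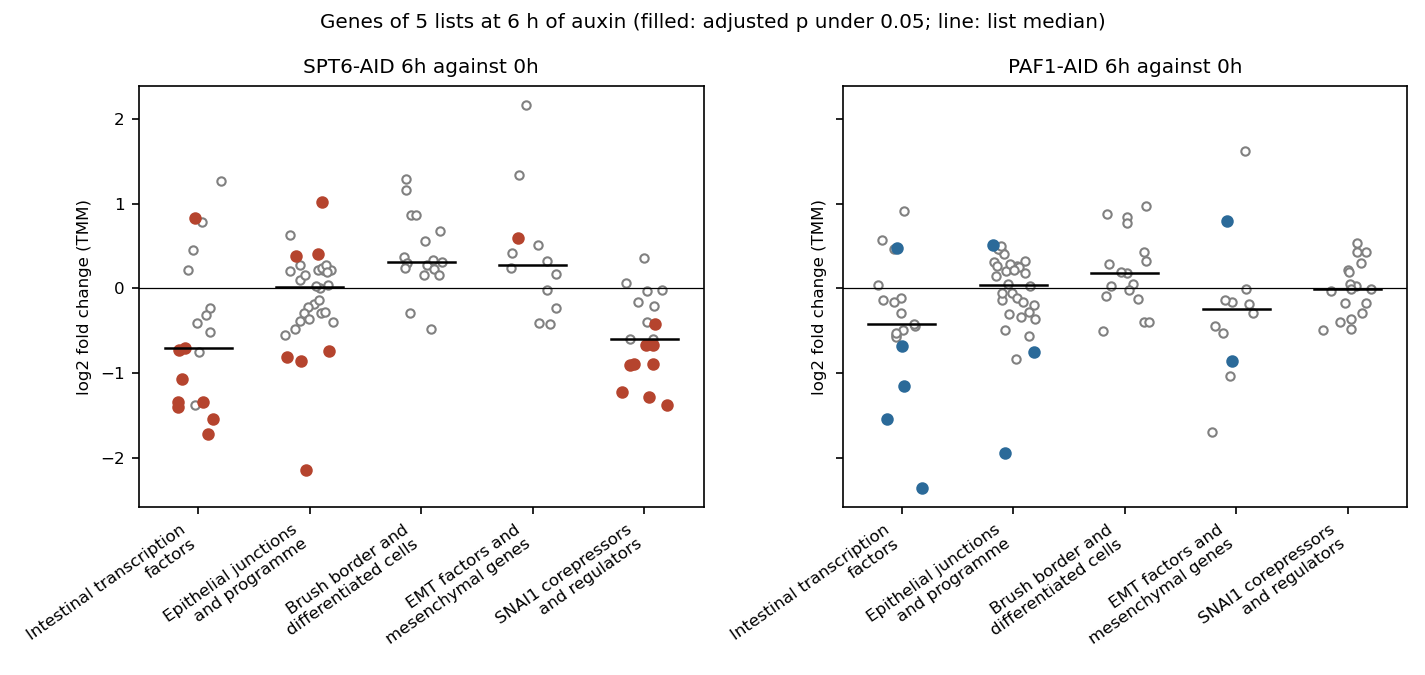
Log2 fold change (TMM) at 6 h against 0 h of the tested genes of 5 lists in SPT6-AID cells (left) and PAF1-AID cells (right), 1 point per gene, filled where the adjusted p was below 0.05, with the list median as a line. The intestinal transcription factors have their median at -0.70 and -0.42, and no gene of the brush border list is filled.

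The rise of SNAI1 was set beside the genes it works with. Of 18 EMT factors and mesenchymal genes, 12 were tested. ITGA5, a fibronectin receptor subunit, rose by 0.60 ± 0.16 in SPT6-AID cells and 0.79 ± 0.16 in PAF1-AID cells (edgeR adjusted p = 0.0213 and 0.0136), with 0.16 and 0.39 and no call under fly scaling. TCF4, an E protein, fell by 0.85 ± 0.19 in PAF1-AID cells (edgeR adjusted p = 0.0214) and stood at 0.24 in SPT6-AID cells. No other gene of the list was called at 6 h in either line. Among all genes tested, 8.76% were higher and 16.4% lower in SPT6-AID cells, and 4.20% higher and 6.70% lower in PAF1-AID cells. With 12 genes tested, these few calls are not read as a change of the list. The list medians were 0.28 and -0.24, and -0.21 and -0.63 with fly scaling. Some EMT factors, named here after their values were seen, were nearly or wholly unread: SNAI2 had 17 counts in all, ZEB2 6, and TWIST1 and TWIST2 0. They do not stand for the other EMT factors of the list.

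Of 18 corepressors of SNAI1 and regulators of its protein, all tested, 9 fell and none rose at 6 h in SPT6-AID cells (14 fell under fly scaling), with a median of -0.60. Of all genes tested, 16.4% fell there under TMM and 28.1% under fly scaling. In PAF1-AID cells none was called (edgeR; 6 at an unadjusted p below 0.05, 3 by DESeq2, 3 as lower under fly scaling), with a median of -0.01. There 6.70% of all genes tested fell and 4.20% rose under TMM, and 13.8% fell under fly scaling. For the difference between the 6 h responses 5 of the 18 were called, where 3.74% of all genes were. SIN3A, a scaffold of histone deacetylase complexes, fell by 1.38 ± 0.18 in SPT6-AID cells (edgeR adjusted p = 0.000540), and SUZ12, a Polycomb subunit, by 0.90 ± 0.11 (edgeR adjusted p = 0.000402). GSK3B, the kinase that marks SNAI1 protein for degradation, fell by 1.22 ± 0.13 (edgeR adjusted p = 0.000223). The ubiquitin ligase subunits BTRC and FBXL5, which act on SNAI1 protein, fell by 0.89 ± 0.16 and 1.28 ± 0.23 (edgeR adjusted p = 0.00300 and 0.00246). In PAF1-AID cells these 5 genes stood at -0.17, -0.36, -0.39, 0.29 and -0.48, none called under TMM, while under fly scaling SUZ12, at -0.75, and GSK3B, at -0.79, were called lower (edgeR adjusted p = 0.0109 and 0.0369). SNAI1 protein was not measured.

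The genes whose levels ran most like those of SNAI1 were found by the root mean square difference of gene-centred log2 CPM over the 12 libraries, among 13279 candidates, as a description. HBEGF, an epidermal growth factor family ligand, was nearest at 0.293, against 0.933 for SNAI1's own deviation from its mean, followed by KCNQ1OT1 at 0.348, TNFSF9 at 0.428, PHLDA2 at 0.434 and TUBB2BP1 at 0.438. For ELF3 the nearest was TSPYL2, at 0.0760 against ELF3's own 0.457, with log2 fold changes at 6 h of 0.89 in SPT6-AID cells and 1.12 in PAF1-AID cells, followed by C12orf76, DYNLL2, SPRING1 and GLUL. For LGALS4 they were AC012615.1, PLEKHO2, KCNQ1OT1, NRARP and ZNF574, at 0.372 to 0.436 against 0.880, values that carry the counting noise of LGALS4. For CDH1 they were LRP5, CPNE2, P4HB, EXT2 and GAA, at 0.0575 to 0.0834 against 0.254.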

How the data were processed

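Whole-number read counts per gene in 12 libraries were deposited by the authors in 1 table, not normalized, with a transcript length and a gene length per gene. Per the labels' protocols, libraries were directional and made from poly(A)-selected RNA. The submitters' processing notes name the trimmer cutadapt (1.14), the aligner STAR (2.7.5) and the counter featureCounts (2.0.0), and the genome builds GRCh38 and BDGP6 (fly). The strand setting of the counting and the annotation release are not given in the sources used here. All library columns matched a sample by name.

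From these counts, human genes passing edgeR's filterByExpr (20791 of 60666) were TMM-scaled and fitted as 6 group means over all 12 libraries (edgeR 4.0.16 in R 4.3.3, 6 residual degrees of freedom). All 9 contrasts were tested by the quasi-likelihood method, with Benjamini-Hochberg adjustment over the genes fitted and a threshold of 0.05; an SE is the log2 fold change over the square root of F. The same fit was also run on simulated data with its estimates of spread, levels pooled over all libraries, and known changes. Those data held no deviations shared by same-numbered libraries, and the outcome is not reported here. CPM uses human counts only, and levels between genes use CPM per kb of the deposited transcript length. No 2 libraries of a group were copies, with a chi-square per degree of freedom of 37.7 to 69.9 between them.

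The 10 genes, the lists and the tests were chosen with earlier results of these data known. Named genes were all 10 members, at most 5 genes per list with the smallest p over the 4 comparisons with 0 h among those called, and the 5 genes nearest to each of SNAI1, ELF3, LGALS4 and CDH1 among genes whose mean log2 CPM (prior count 2) was 1 or more. Some genes that this rule names are not reported here. Positions came from GENCODE 29, matched by gene ID for 58420 rows. The deposited gene length equalled that release's span for 75.8% of them, so the authors' release differed. Promoters came from RefSeq on GRCh38.p14. The alternatives were DESeq2's size factors, fly totals in place of library sizes, no low-count filter, DESeq2's Wald test (1.42.0), the compared libraries alone, the replicate number as a block, and each library left out in turn.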

Additional observations from a re-analysis of the deposited data

Results flagged for a closer look

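CDX2 is listed because its 6 h response differed between the lines: SPT6-AID minus PAF1-AID was -1.11 on the log2 scale (edgeR adjusted p = 0.0437). Both SPT6-AID libraries at 6 h lay below the 2 SPT6-AID libraries at 0 h, and both PAF1-AID libraries at 6 h lay above the 2 PAF1-AID libraries at 0 h. The call was lost in all but 3 of the 12 cases with 1 library left out. With 2 libraries a group, no library could be tested as an outlier.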

How the results depend on the processing

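Of 11 called values of single genes, none changed direction in the settings tried: 151 values were still called and 47 were not. The numbers of the members called changed as follows. At 6 h in SPT6-AID cells fly scaling called 2 in place of 3, CDX2 as lower and SNAI1 as higher; DESeq2's Wald test and the compared libraries alone called 2, ELF3 and SNAI1, and no filter called these and VIL1. Without a filter on low counts SPT6-AID cells also had 1 at 2 h and 3 between 2 and 6 h, and PAF1-AID cells 3 at 2 h. Of the 38744 genes then fitted, 380, 4003 and 274 were called in these comparisons. DESeq2's Wald test called 509 of 15954 genes at 2 h in SPT6-AID cells and 270 of 17566 in PAF1-AID cells. It called 3615 of 20791 between 2 and 6 h in SPT6-AID cells and 2980 of 20791 at 6 h in PAF1-AID cells. Of the members it gave 1 and 2 at 2 h in SPT6-AID and PAF1-AID cells. It gave 4 between 2 and 6 h in SPT6-AID cells, and 6 at 6 h in PAF1-AID cells, CDH1 added. In that last comparison the compared libraries alone gave 4, LGALS4 lost. Fly scaling gave 3 at 6 h in PAF1-AID cells, 1 between 2 and 6 h in SPT6-AID cells and 0 for the difference between the 6 h responses. DESeq2's size factors also gave 0 for that difference, and a fit of the compared libraries alone gave 0 for it and 0 between 2 and 6 h in SPT6-AID cells. Leaving out 1 library gave 0 to 1 at 2 h and 2 to 5 at 6 h in PAF1-AID cells, and in SPT6-AID cells 2 to 3 at 6 h and 0 to 3 between 2 and 6 h, and 0 to 1 for the difference at 6 h. For the remaining 4 comparisons, 2 h against 0 h in SPT6-AID cells, 6 h against 2 h in PAF1-AID cells, the 2 h difference and the lines at 0 h, it gave 0. The cause of these changes was not tested. The leave-outs and the fit of compared libraries alone also held fewer libraries. In the leave-outs a lone library was assumed to vary like the other groups.

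What the replicate number stands for is not said by the labels. Deviations of same-numbered libraries from their group means correlated at 0.491 to 0.660 across genes, but each comparison holds 2 pairs, so the libraries are treated as sharing only a number. With the number as a block, calls of the 8 genes numbered 2 (2 h) and 7 (6 h) in SPT6-AID cells, 4 in PAF1-AID cells at 2 h, 7 between 2 and 6 h in SPT6-AID cells and 3 in PAF1-AID cells, 6 in PAF1-AID cells at 6 h, and 2 and 3 for the differences at 2 and 6 h. At 6 h it added CDX2 as lower (edgeR adjusted p = 0.00208) and EPCAM, CDH1 and KRT20 as higher in SPT6-AID cells, and CDH1 as higher in PAF1-AID cells. The CDX2 difference at 6 h had an adjusted p of 8.39e-06, and CLDN4 and SNAI1 were called for it as well. Of all 20791 genes tested the block called 1613 at 2 h and 10683 at 6 h in SPT6-AID cells, and 1452 and 7958 in PAF1-AID cells. Between 2 and 6 h it called 8466 in SPT6-AID cells and 4172 in PAF1-AID cells. For the differences at 2 and 6 h it called 240 and 4513. The larger numbers of the 8 genes called thus came with many more calls among all genes. The lines share no number, so the lines at 0 h have no such fit.

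Depth limits LGALS4, at 4 to 35 counts a library, and VIL1, at 0 to 11.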
